A study of Homo sapiens with 10 samples.

Results

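The 10 genes described here are the NF-kappaB subunits *NFKB1*, *NFKB2*, *RELA*, *RELB* and *REL*, the inhibitors *NFKBIA* and *NFKBIE*, the feedback targets *TNFAIP3* and *BIRC3*, and the ligand gene *TNF*. They were chosen by name, with earlier results of these data known, and all 10 were found among the 59386 genes counted in every library. RNA was sequenced from VCaP, a single epithelial cell line derived from a prostate cancer, to compare knockdown of the chromatin remodelers SMARCA4 and SMARCA1 with control cells. In the knockdown libraries, 30 pmol of siRNA was delivered with the lipid reagent RNAiMAX and the RNA was taken 72 h later. *SMARCA4* was targeted with siRNA A or siRNA B and *SMARCA1* with siRNA A or siRNA C. Each siRNA had 2 libraries, and 2 further libraries are labelled control with the genotype WT, for which neither a siRNA nor a dose is named in the sources used here. In comparisons with these controls, changes that come with siRNA delivery and changes from loss of the target therefore cannot be told apart. No source says whether the replicates came from separate cultures, so p-values measure only the spread between these libraries, which may be technical.

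NF-kappaB is a family of transcription factors that work as pairs of subunits and are held in the cytoplasm by IkappaB proteins until a receptor activates the IKK kinases, which mark IkappaB for degradation. The freed pairs switch on genes of inflammation and survival, among them genes for the inhibitors themselves, so that the response limits its own length. TNF is both a ligand that starts the pathway and one of its target genes, and in epithelial cells the pathway answers to cytokines and to sensors of foreign nucleic acid.

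The promoters of *TNFAIP3*, *BIRC3*, *NFKBIA* and *NFKB2* are printed first because these genes carry matches to the sequence that NF-kappaB subunits recognize, and 1 promoter of *RELA* is printed as a member without a match. The sequences are 300 bases around a RefSeq start site in GRCh38.p14, written 5′ to 3′ on the strand of the gene, with matches to the kappaB consensus on either strand in capitals.
*TNFAIP3*, chr6:137867009-137867308, plus strand: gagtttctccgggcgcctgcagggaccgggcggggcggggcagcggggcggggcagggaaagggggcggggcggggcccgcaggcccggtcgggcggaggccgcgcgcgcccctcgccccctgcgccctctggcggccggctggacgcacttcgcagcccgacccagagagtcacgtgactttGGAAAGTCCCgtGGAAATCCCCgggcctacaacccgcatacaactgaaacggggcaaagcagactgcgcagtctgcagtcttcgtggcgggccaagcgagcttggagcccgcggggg
*BIRC3*, chr11:102317234-102317533, plus strand: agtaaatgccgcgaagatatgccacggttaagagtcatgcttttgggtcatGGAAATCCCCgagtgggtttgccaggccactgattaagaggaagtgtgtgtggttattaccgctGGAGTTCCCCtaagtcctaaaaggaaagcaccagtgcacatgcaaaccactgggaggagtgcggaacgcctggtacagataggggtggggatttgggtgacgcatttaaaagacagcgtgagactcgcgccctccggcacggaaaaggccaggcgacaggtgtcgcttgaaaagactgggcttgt
*NFKBIA*, chr14:35404700-35404999, minus strand: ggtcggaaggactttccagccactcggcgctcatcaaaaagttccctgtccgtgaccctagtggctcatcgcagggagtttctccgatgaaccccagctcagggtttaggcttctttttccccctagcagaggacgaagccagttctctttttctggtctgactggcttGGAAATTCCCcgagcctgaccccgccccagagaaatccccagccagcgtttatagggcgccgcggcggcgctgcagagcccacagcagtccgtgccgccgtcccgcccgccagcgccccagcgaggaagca
*NFKB2*, chr10:102394328-102394627, plus strand: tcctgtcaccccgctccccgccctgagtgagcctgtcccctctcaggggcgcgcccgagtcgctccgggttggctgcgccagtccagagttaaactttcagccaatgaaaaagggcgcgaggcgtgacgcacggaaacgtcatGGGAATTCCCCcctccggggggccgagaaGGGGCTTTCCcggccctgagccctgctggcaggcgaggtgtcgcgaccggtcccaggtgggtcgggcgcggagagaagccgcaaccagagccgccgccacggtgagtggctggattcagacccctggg
*RELA*, chr11:65662867-65663166, minus strand: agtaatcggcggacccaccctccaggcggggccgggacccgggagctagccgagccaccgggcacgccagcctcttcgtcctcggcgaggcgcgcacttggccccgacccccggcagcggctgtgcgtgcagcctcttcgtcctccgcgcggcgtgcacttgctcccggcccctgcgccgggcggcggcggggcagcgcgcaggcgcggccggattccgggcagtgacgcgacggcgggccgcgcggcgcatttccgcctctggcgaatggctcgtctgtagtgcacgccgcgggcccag

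RefSeq promoters were found for 8 of the 10 genes, in 12 windows, and none for *RELB* or *NFKBIE*. The kappaB consensus was present in 7 of these 12 windows, those of *NFKB1*, *NFKB2*, *REL*, *NFKBIA*, *TNFAIP3* and *BIRC3*, so that 6 of 8 genes had at least 1 match. Among all 35116 promoter windows of this length, 5.91% held the consensus, and 7.09% of 27305 genes had at least 1 such window. *TNFAIP3*, *BIRC3*, *REL* and the third start site of *NFKB2* each had matches at 2 places, which overlapped in *REL*. The second start site of *NFKB2* had 3, of which 2 overlapped. In *TNFAIP3* the matches began 67 and 55 bases before the start site, and in *NFKBIA* the match began 81 bases before it. The repeat GAAANNGAAA, which interferon regulatory factors recognize, was also searched on both strands and was held by 3.57% of all windows. Among the members it was found only at the first start site of *RELA*. Neither search says whether a factor was bound in these cells, and a window without a match lacks only these letters.

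**Figure D1:**
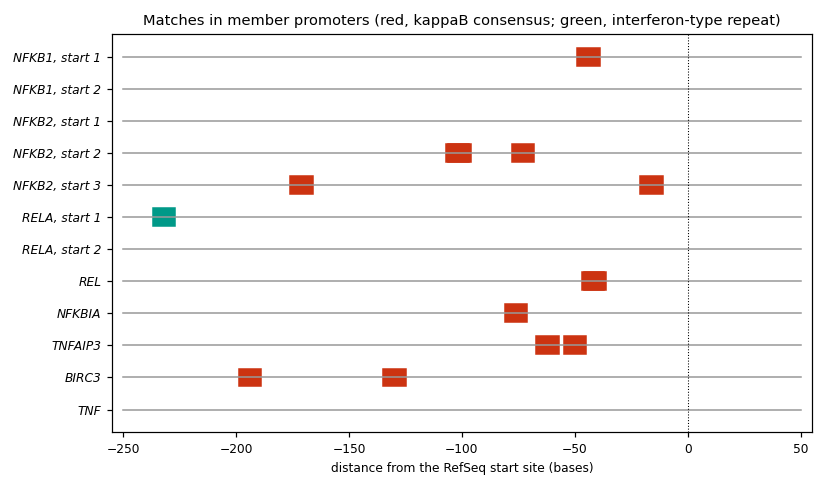
Places of the kappaB consensus (red) and of GAAANNGAAA (green) in the 12 RefSeq promoter windows of the members, by distance from the start site in bases. The *NFKB1*, *REL*, *TNFAIP3* and *NFKBIA* matches lie within 100 bases before the start site. *NFKB1* start 2, *NFKB2* start 1, *RELA* start 2 and *TNF* have none.

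Total counts lay between 23898545 and 34667965 per library, and a floor of 3 counts divided by these totals corresponded to 0.0865 to 0.126 CPM. Gene levels in CPM divide each count by the library total over the genes kept, multiplied by a normalization factor. Floors cover counting error only. The targeted genes checked the labels, since *SMARCA4* stood at 7.87% of its control level in *SMARCA4* knockdown and *SMARCA1* at 8.78% in *SMARCA1* knockdown. In *SMARCA4* knockdown, *SMARCA1* itself stood at 211% of its control level. All 10 markers of VCaP were above 1 CPM in every library, and of 7 immune cell markers 2 were at 0 in all libraries and none was above 1 CPM in every library. The replicates of *SMARCA1* siRNA A and of *SMARCA4* siRNA A differed most, with a chi-square per gene of 55.8 and 39.9, beside 5.94 between the controls. As the RNA came from whole cultures, fewer cells of a kind and less RNA per cell cannot be told apart.

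Of the 10 genes, 9 passed the filter on low counts and *TNF* did not. All 9 had at least 70 counts in each control, so none passed only through a group in which it was high. In *SMARCA4* knockdown 8 of the 9 tested genes were higher than in the control at an adjusted p below 0.05 and 0 were lower, with a median log2 fold change of 0.90. Over all 16899 genes tested, 45.1% were called, 22.8% as higher and 22.3% as lower, and the median log2 fold change was 0.0022. In *SMARCA1* knockdown 8 of 9 were higher and 0 were lower, with a median of 0.76, where 46.8% of all genes were called, 23.8% as higher and 23% as lower. The same 8 genes were called in both knockdowns, against 16.2% of all genes called higher in both, and *REL* was the 1 gene not called. All 4 libraries lay above both controls for 9 of 9 genes in *SMARCA4* knockdown and for 8 of 9 in *SMARCA1* knockdown, against 29.5% and 29.1% of all genes tested. Both knockdowns were compared with the same 2 controls. All tests were edgeR's quasi-likelihood tests with Benjamini-Hochberg adjustment over all genes.

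**Figure D2:**
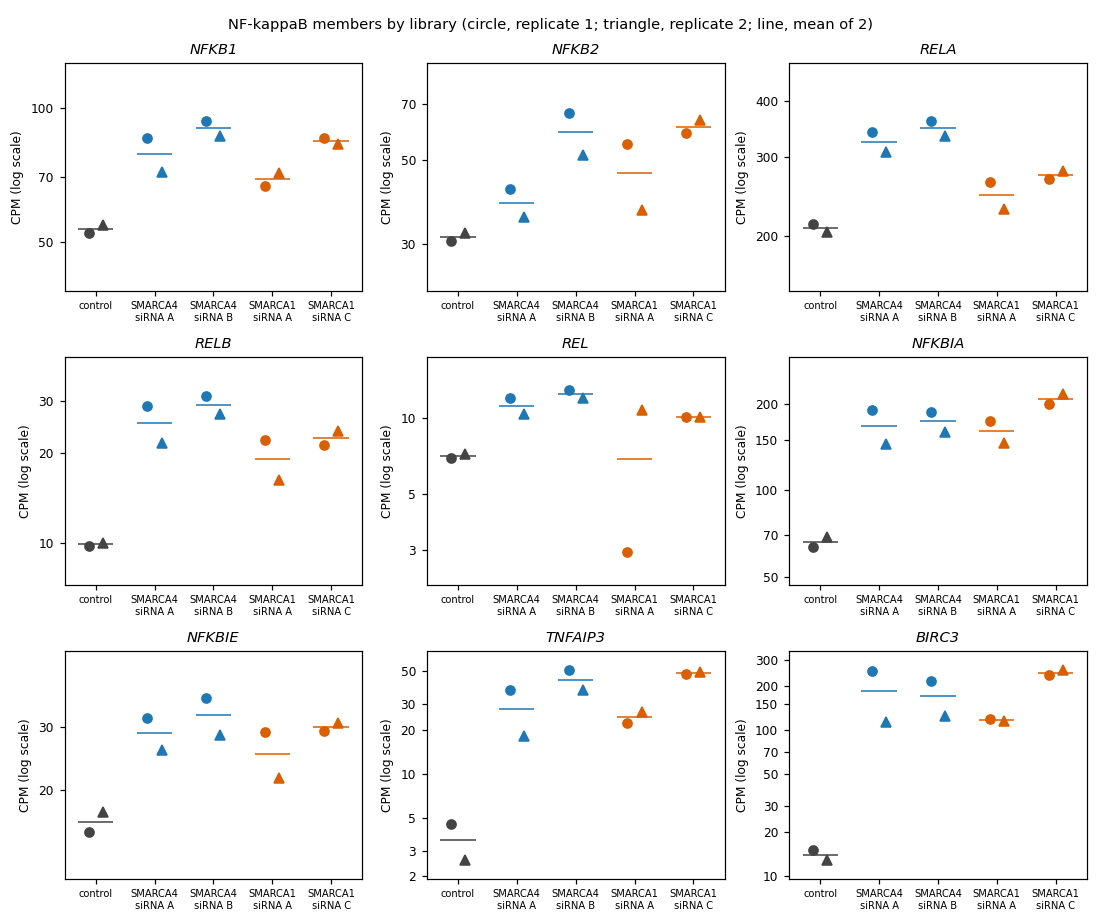
CPM (log scale) of the 9 tested members in each of the 10 libraries, with replicate 1 as a circle, replicate 2 as a triangle and a line at the mean of 2. *BIRC3* and *TNFAIP3* lie highest above the controls, and *REL* has 1 low library of *SMARCA1* siRNA A.

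*RELA* encodes the main activating subunit of the classical pathway and lies at chr11:65653597-65663090 on the minus strand. Its level was 213 and 203 CPM in the controls, 341 and 307 CPM with *SMARCA4* siRNA A, and 361 and 335 CPM with *SMARCA4* siRNA B. With *SMARCA1* siRNA A it was 263 and 230 CPM, and with siRNA C 267 and 279 CPM. Every *SMARCA4* library was above every *SMARCA1* library, and all 8 were above both controls. The log2 fold change was 0.69 (SE 0.10, edgeR adjusted p = 0.00042) in *SMARCA4* knockdown and 0.32 (SE 0.10, adjusted p = 0.023) in *SMARCA1* knockdown. The second call was lost without control replicate 1 (adjusted p = 0.075), control replicate 2 (0.13), *SMARCA1* siRNA C replicate 1 (0.052) or siRNA C replicate 2 (0.077). *RELA* shares 85 exon bases with the divergent transcript *RELA-DT* on the opposite strand, and the libraries were made with a directional kit.

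*NFKB1* encodes the precursor of the DNA-binding partner of RELA and lies at chr4:102501331-102617302 on the plus strand. It was counted at 52.4 and 54.4 CPM in the controls, between 71.7 and 93.3 CPM in the 4 *SMARCA4* libraries and between 66.6 and 85.5 CPM in the 4 *SMARCA1* libraries. The 4 libraries of each knockdown were above both controls and overlapped those of the other. *NFKB1* rose by 0.65 on the log2 scale (SE 0.10, edgeR adjusted p = 0.00068) in *SMARCA4* knockdown and by 0.51 (SE 0.10, adjusted p = 0.0028) in *SMARCA1* knockdown.

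*NFKB2*, at chr10:102394110-102402524 on the plus strand, encodes the precursor that the alternative pathway processes. Control levels were 30.6 and 32.2 CPM. The *SMARCA4* libraries held 41.8 and 35.2 CPM with siRNA A and 66.4 and 51.5 CPM with siRNA B, and the *SMARCA1* libraries 55.1 and 36.9 CPM with siRNA A and 58.6 and 63.4 CPM with siRNA C. Both libraries of *SMARCA4* siRNA A lay nearer to the controls than either library of siRNA B. The log2 fold change was 0.60 (SE 0.17, edgeR adjusted p = 0.015) in *SMARCA4* knockdown and 0.76 (SE 0.17, adjusted p = 0.0051) in *SMARCA1* knockdown. In *SMARCA4* knockdown the call was lost without control replicate 1 (adjusted p = 0.094) or control replicate 2 (0.066).

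*RELB*, which pairs with the processed NFKB2 protein and is itself a target of the pathway, lies at chr19:45001449-45038198 on the plus strand. It showed the largest log2 change among the subunits in both knockdowns. The controls held 9.83 and 10.1 CPM, *SMARCA4* siRNA A 28.9 and 21.8 CPM, and *SMARCA4* siRNA B 31.1 and 27.1 CPM. *SMARCA1* siRNA A gave 22.1 and 16.3 CPM and siRNA C 21.3 and 23.9 CPM. All 8 knockdown libraries were above both controls, as for 19.6% of all genes tested. *RELB* rose by 1.45 on the log2 scale (SE 0.17, edgeR adjusted p = 0.00013) in *SMARCA4* knockdown and by 1.07 (SE 0.17, adjusted p = 0.00075) in *SMARCA1* knockdown.

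*REL*, at chr2:60881521-60931612 on the plus strand, encodes a subunit known mainly from lymphoid cells. It was counted at 6.94 and 7.25 CPM in the controls. The levels were 12 and 10.4 CPM with *SMARCA4* siRNA A, 13 and 12 CPM with *SMARCA4* siRNA B, 2.96 and 10.8 CPM with *SMARCA1* siRNA A, and 10.1 and 10.1 CPM with *SMARCA1* siRNA C. Of the 8 knockdown libraries, 7 were above both controls and *SMARCA1* siRNA A replicate 1, with 82 counts, was below both. The log2 fold change was 0.74 (SE 0.36, edgeR adjusted p = 0.12) in *SMARCA4* knockdown and 0.23 (SE 0.36, adjusted p = 0.63) in *SMARCA1* knockdown. Fitted on the *SMARCA4* and control libraries alone, it was called at 0.75 (adjusted p = 0.0015). In *SMARCA1* knockdown it was 0.56 without siRNA A replicate 1 and -0.34 without siRNA A replicate 2, so that 1 library set its direction. *REL* shares 5702 of 13172 exon bases with the gene model *RP11-373L24.1* on its own strand, which had 0 counts in all libraries, and reads from those bases cannot be told apart.

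*NFKBIA* encodes IkappaBalpha, the inhibitor that NF-kappaB resynthesizes after activation, at chr14:35401513-35404749 on the minus strand. Its level was 63.2 and 68.9 CPM in the controls, 191 and 145 CPM with *SMARCA4* siRNA A, and 189 and 161 CPM with *SMARCA4* siRNA B. *SMARCA1* siRNA A gave 176 and 146 CPM and siRNA C 201 and 217 CPM. Every knockdown library held more than the higher control. The log2 fold change was 1.37 (SE 0.14, edgeR adjusted p = 6.5e-05) in *SMARCA4* knockdown and 1.47 (SE 0.14, adjusted p = 6.9e-05) in *SMARCA1* knockdown.

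*NFKBIE* encodes IkappaBepsilon, a second inhibitor of the same family, at chr6:44258166-44265788 on the minus strand. It was counted at 15.3 and 17.4 CPM in the controls, between 25.9 and 36.0 CPM in the *SMARCA4* libraries and between 21.6 and 30.8 CPM in the *SMARCA1* libraries. No knockdown library overlapped the controls. *NFKBIE* rose by 0.90 on the log2 scale (SE 0.16, edgeR adjusted p = 0.0014) in *SMARCA4* knockdown and by 0.75 (SE 0.16, adjusted p = 0.0038) in *SMARCA1* knockdown.

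*BIRC3* encodes a ubiquitin ligase of the inhibitor of apoptosis family that acts at the TNF receptor, at chr11:102317450-102339403 on the plus strand. It had the largest log2 fold change of the members in both knockdowns. Control levels were 15.1 and 12.9 CPM. With *SMARCA4* siRNA A they were 252 and 113 CPM, with *SMARCA4* siRNA B 215 and 124 CPM, with *SMARCA1* siRNA A 119 and 114 CPM, and with *SMARCA1* siRNA C 236 and 255 CPM. The lowest knockdown library was thus far above the higher control, while replicates 1 and 2 of either *SMARCA4* siRNA lay well apart. The log2 fold change was 3.65 (SE 0.35, edgeR adjusted p = 4.2e-05) in *SMARCA4* knockdown, a 12.6-fold rise, and 3.60 (SE 0.35, adjusted p = 6.9e-05) in *SMARCA1* knockdown, a 12.1-fold rise.

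*TNFAIP3* encodes a ubiquitin-editing enzyme that ends signalling from the TNF receptor, at chr6:137867214-137883312 on the plus strand. It was low in the controls, at 4.52 and 2.60 CPM from 108 and 70 counts. The levels were 37.2 and 18.1 CPM with *SMARCA4* siRNA A, 50.6 and 36.9 CPM with *SMARCA4* siRNA B, 22.2 and 26.4 CPM with *SMARCA1* siRNA A, and 47.6 and 49.5 CPM with *SMARCA1* siRNA C. All 8 knockdown libraries were above both controls. *TNFAIP3* rose by 3.30 on the log2 scale (SE 0.34, edgeR adjusted p = 6.1e-05) in *SMARCA4* knockdown and by 3.28 (SE 0.34, adjusted p = 9.2e-05) in *SMARCA1* knockdown. *TNFAIP3* shares 95 exon bases with *WAKMAR2* and *BIRC3* 126 with *RP11-640G3.1*, both on the opposite strand, and these partners had 41 and 62 counts over all libraries.

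*TNF*, the ligand, at chr6:31575565-31578336 on the plus strand, was at 0 counts in both controls. It had 0 and 1 counts with *SMARCA4* siRNA A, 7 and 2 with *SMARCA4* siRNA B, 1 and 0 with *SMARCA1* siRNA A, and 3 and 5 with *SMARCA1* siRNA C. In 8 of the 10 libraries it was at or under the floor of 3 counts, so no fold change is given and a difference was not detectable at this depth.

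**Figure D3:**
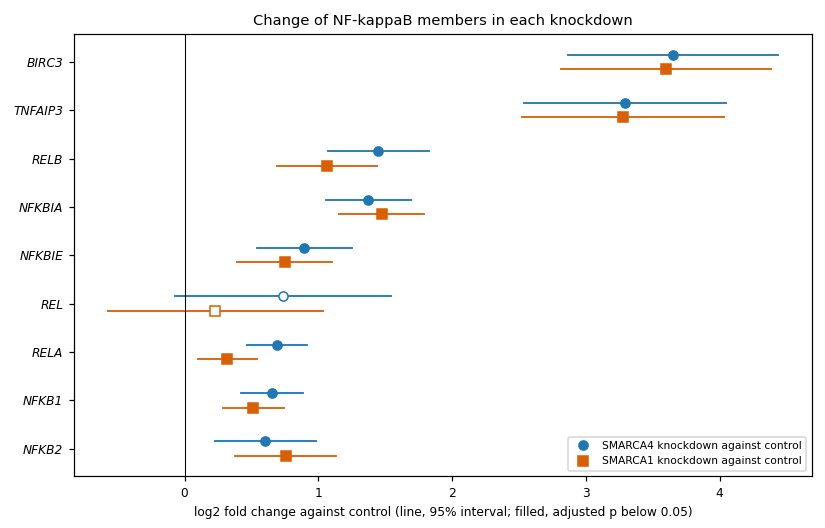
Log2 fold change of the 9 tested members in *SMARCA4* (circles) and *SMARCA1* (squares) knockdown against the control, with 95% intervals from the edgeR fit and filled symbols for an adjusted p below 0.05. *BIRC3* and *TNFAIP3* lie above 3 in both knockdowns, the other called members between 0.32 and 1.47, and both intervals of *REL* reach 0.

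Set directly against each other, the knockdowns differed in 2 of 9 members, both higher in *SMARCA4* knockdown, where 35.4% of all genes were called and 16.3% were higher. *RELA* was higher by 0.37 on the log2 scale (SE 0.079, edgeR adjusted p = 0.0057), and it was the 1 member whose *SMARCA4* and *SMARCA1* libraries did not overlap, as was true of 26.7% of all genes. *RELB* was higher by 0.38 (SE 0.13, adjusted p = 0.040). The *RELB* call was lost with any of 6 libraries left out. Its adjusted p was 0.055 without *SMARCA1* siRNA A replicate 2, 0.14 and 0.073 without *SMARCA1* siRNA C replicate 1 and replicate 2, 0.12 without *SMARCA4* siRNA A replicate 1, and 0.097 and 0.057 without *SMARCA4* siRNA B replicate 1 and replicate 2. For the strongest members the difference between the knockdowns had wide intervals. That of *BIRC3* was 0.055 (95% interval -0.46 to 0.57) and that of *TNFAIP3* 0.018 (-0.47 to 0.50). The difference was -0.10 for *NFKBIA* (-0.34 to 0.14), 0.15 for *NFKBIE* (-0.13 to 0.42), 0.14 for *NFKB1* (-0.040 to 0.32) and -0.15 for *NFKB2* (-0.45 to 0.14). For *REL* it was 0.51 (-0.12 to 1.14). Without *SMARCA1* siRNA A replicate 2, which leaves that siRNA a lone library, the difference was 1.12 for *REL* and -0.27 for *NFKB2*.

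Each siRNA was also set against the control. *SMARCA4* siRNA A gave 7 members higher, siRNA B 8, *SMARCA1* siRNA A 7 and siRNA C 8, with 0 lower for each, where 33.2%, 45%, 34.8% and 45.3% of all genes were called, and 17.4%, 23%, 18.5% and 23.8% were higher. *BIRC3*, *TNFAIP3*, *NFKBIA*, *RELB*, *NFKBIE* and *NFKB1* were called with all 4 siRNAs. *NFKB2* was not called with *SMARCA4* siRNA A (log2 fold change 0.29, SE 0.19, edgeR adjusted p = 0.26), nor *RELA* with *SMARCA1* siRNA A (0.24, SE 0.11, adjusted p = 0.12), and *REL* was called with none. With no filter on low counts, and with only the libraries compared, *REL* was called higher with *SMARCA4* siRNA A, *SMARCA4* siRNA B and *SMARCA1* siRNA C. With *SMARCA1* siRNA A, *REL* was higher than the control without replicate 1 and lower without replicate 2 of that siRNA. Without control replicate 1 or without control replicate 2, 4 members were called with *SMARCA1* siRNA A, and *NFKB1*, *NFKB2* and *NFKBIE* were no longer among them. In the same fits the calls over all genes went from 5873 of 16899 to 2496 of 17657 and 3195 of 17665. *NFKBIE* was also lost with *SMARCA4* siRNA A without control replicate 1, which left 6 members called, where calls over all genes went from 5614 to 2862. With *SMARCA1* siRNA C, *RELA* was lost without either replicate of that siRNA and without either control, which left 7 members called. A fit without 1 of the 2 libraries of a group rests on the lone one left, whose spread is assumed to be that of the other groups.

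The siRNAs of 1 target were then compared with each other. Between *SMARCA4* siRNA B and siRNA A, edgeR called 0 of 9 members, beside 6.2% of all genes, and 1 had an unadjusted p below 0.05. DESeq2 called 1 member, beside 1674 of 16899 genes. The difference was 0.62 for *NFKB2* (SE 0.19, edgeR adjusted p = 0.081) and 0.67 for *TNFAIP3* (SE 0.31, adjusted p = 0.22). Without *SMARCA4* siRNA A replicate 1, the *TNFAIP3* difference was 1.27, a value that sets siRNA B against the lone replicate 2 with a spread taken from the other groups. Between *SMARCA1* siRNA C and siRNA A, edgeR called 0 of 9, beside 0.0118% of all genes, and 4 had an unadjusted p below 0.05. DESeq2 called 2 members, beside 516 of 16899 genes. The share of all genes with an unadjusted p below 0.05 was not counted for either comparison. There the difference was 1.07 for *BIRC3* (SE 0.33, edgeR adjusted p = 0.17) and 1.00 for *TNFAIP3* (SE 0.31, adjusted p = 0.17). Both *SMARCA1* siRNA C libraries were above both siRNA A libraries for these 2 genes, and the share of all genes with this order was not counted. Without *SMARCA1* siRNA A replicate 2, the *REL* difference was 1.74, but siRNA A was then only the library with 82 counts, with a spread taken from the other groups.

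Levels were compared between genes only per length, as TPM, in which each count is divided by the length of the gene and scaled to a common library total. In the controls the order was *RELA* at 167 ± 4.48 TPM (SD, n = 2), *NFKBIA* at 122 ± 7.99, *NFKB1* at 36.8 ± 1.16, *NFKB2* at 29.2 ± 1.19, *NFKBIE* at 27.8 ± 2.57, *RELB* at 14.5 ± 0.31, *BIRC3* at 8.13 ± 0.87, *TNFAIP3* at 3.10 ± 1.17, *REL* at 2.36 ± 0.082 and *TNF* at 0. The libraries of *NFKB2* and *NFKBIE* overlapped, as did those of *TNFAIP3* and *REL*. The TPM of *REL* used all of its 13172 exon bases, of which 7470 are not shared with a gene on its strand. Its place after *TNFAIP3* in the controls depends on that length. In *SMARCA4* knockdown *NFKBIA* came first at 320 ± 34.9 TPM (SD, n = 4), with libraries that overlapped those of *RELA* at 273 ± 14.5, and *BIRC3* came next at 103 ± 37.8. In *SMARCA1* knockdown *NFKBIA* stood at 322 ± 44.6 TPM, *RELA* at 197 ± 9.26 and *BIRC3* at 99.0 ± 38.9, and these 3 did not overlap. *BIRC3* thus lay below *NFKB1*, *NFKB2*, *NFKBIE* and *RELB* in the controls and above all 4 in both knockdowns. Neighbours among *NFKB1*, *NFKB2*, *NFKBIE*, *RELB* and *TNFAIP3* overlapped in both knockdowns, and *REL* and *TNF* stayed last.

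The 5 subunits together made up 250 ± 1.74 TPM in the controls (SD, n = 2), 422 ± 36.9 TPM in *SMARCA4* knockdown (n = 4) and 325 ± 23.5 TPM in *SMARCA1* knockdown (n = 4). *RELA* held 66.8% of this sum in the controls, between 62.3 and 67.8% in the *SMARCA4* libraries and between 59.2 and 62.5% in the *SMARCA1* libraries. The share of *RELB* was 5.79% in the controls, 9.46% in *SMARCA4* knockdown and 8.79% in *SMARCA1* knockdown, with every knockdown library above both controls. *NFKBIA* rose more than *RELA*. The ratio of *NFKBIA* to *RELA* in TPM was 0.68 and 0.78 in the controls, 1.08 to 1.29 in the *SMARCA4* libraries and 1.47 to 1.79 in the *SMARCA1* libraries, and the 3 groups did not overlap. These ratios are of RNA per length and were described without a test.

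**Figure D4:**
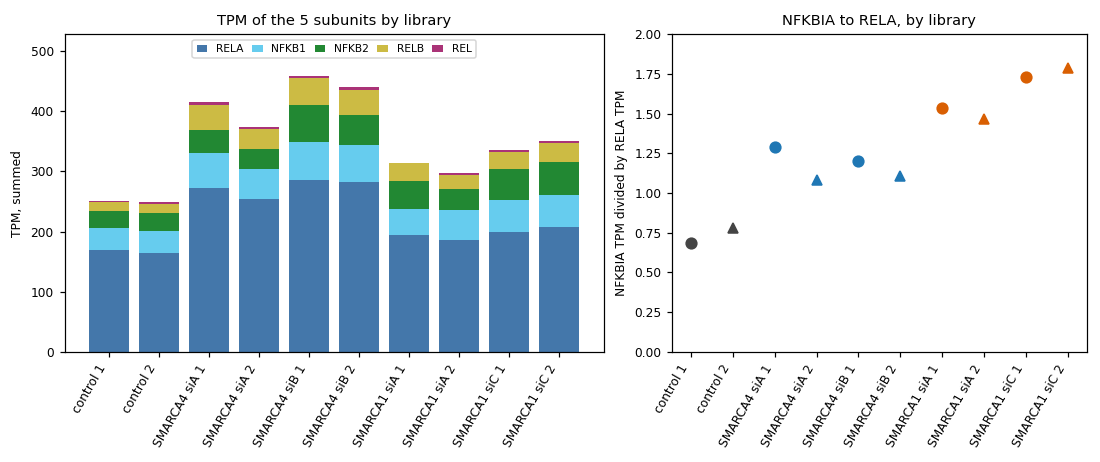
Left, summed TPM of the 5 subunits in each library, with bars from 0 split by subunit. Right, the TPM of *NFKBIA* divided by that of *RELA* in each library, which lies below 0.8 in the controls, between 1.08 and 1.29 in *SMARCA4* knockdown and above 1.4 in *SMARCA1* knockdown.

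The wider pathway was described by counts in 4 lists, to be read beside all genes tested, of which 22.8% were higher and 22.3% lower in *SMARCA4* knockdown and 23.8% and 23% in *SMARCA1* knockdown. Of 11 IKK complex and activating kinase genes, 6 were higher, 0 lower and 5 not called in *SMARCA4* knockdown (median log2 fold change 0.43), and 4 were higher, 2 lower and 5 not called in *SMARCA1* knockdown (median 0.30). The 6 of 11 called in each knockdown were near the 45.1% and 46.8% of all genes called. *IKBKE*, a kinase of the innate immune branch, rose by 1.56 (SE 0.25, edgeR adjusted p = 0.00082) and 1.84 (SE 0.25, adjusted p = 0.00037). Its relative *TBK1* rose by 0.95 and 0.82, and *IKBKG*, the scaffold of the IKK complex, by 0.71 and 0.86. *CHUK*, an IKK kinase subunit, fell by 0.61 (SE 0.10, adjusted p = 0.00099) in *SMARCA1* knockdown, and *TAB3* fell by 0.66 (SE 0.21, adjusted p = 0.026). Fewer genes of the list were called in *SMARCA1* knockdown without control replicate 1, as was true over all genes.

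Among 21 tested of 23 receptor and adaptor genes, 15 were higher, 2 lower and 4 not called in each knockdown, with medians of 1.03 and 0.75. *MYD88*, the adaptor of Toll-like and interleukin receptors, was at 27.4 and 28.7 CPM in the controls and between 133 and 293 CPM in the 8 knockdown libraries. It rose by 2.98 (SE 0.19, edgeR adjusted p = 4.9e-06) in *SMARCA4* and by 2.71 (SE 0.19, adjusted p = 9.7e-06) in *SMARCA1* knockdown. The TNF receptor genes were near the floor in the controls, with 2 and 6 counts for *TNFRSF1A* and 1 and 6 for *TNFRSF1B*. Both passed the filter on low counts through knockdown libraries alone and could hardly have been called lower. *TNFRSF1B* had 27 to 308 counts in the knockdown libraries and was called in both knockdowns. *TNFRSF1A* had 118 to 531 counts in the *SMARCA1* libraries and 4 to 146 in the *SMARCA4* libraries, where *SMARCA4* siRNA A replicate 2, with 4 counts, overlapped the controls. The kinase gene *IRAK1* fell by 0.61 (SE 0.094, adjusted p = 0.00059) in *SMARCA4* and by 0.36 (SE 0.094, adjusted p = 0.011) in *SMARCA1* knockdown. *TRAF3*, a brake on the alternative pathway, fell by 0.44 and 0.53.

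Of the other inhibitors and IkappaB proteins, 9 of 10 genes were tested, of which 7 were higher, 0 lower and 2 not called in *SMARCA4* knockdown, and 6, 0 and 3 in *SMARCA1* knockdown, each with a median of 0.52. *NFKBIZ*, a nuclear IkappaB protein, rose by 2.21 (SE 0.26, edgeR adjusted p = 0.00014) and 1.73 (SE 0.26, adjusted p = 0.00059), *BCL3* by 1.38 and 1.05, and *NFKBIB* by 0.99 and 1.18. Fewer of these genes were called in *SMARCA4* knockdown without control replicate 1, as was true over all genes. Of 31 other target genes, 20 were tested, and the other 11 had at most 5 counts in any library. In *SMARCA4* knockdown 17 were higher, 2 lower and 1 not called (median 1.93), and in *SMARCA1* knockdown 16 were higher, 2 lower and 2 not called (median 1.43). The chemokine gene *CXCL1* rose from 0.71 and 1.00 CPM in the controls to between 21.7 and 61.3 CPM in *SMARCA4* and between 14.7 and 44.4 CPM in *SMARCA1* knockdown. *IRF1* rose by 3.27 (SE 0.26, adjusted p = 1.7e-05) and 3.36 (SE 0.26, adjusted p = 2.3e-05). The chemokine gene *CCL20* had 0 and 4 counts in the controls and 16 to 63 in the knockdown libraries. It passed the filter on low counts through knockdown libraries alone, so it could hardly have been called lower. How many other genes of the pathway lists did so was not counted, and their counts of higher genes and medians may lean upward. *SOD2*, which encodes a mitochondrial superoxide dismutase, fell by 0.74 and 0.33, and *XIAP*, of the same family as *BIRC3*, fell by 0.50 and 1.07.

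**Figure D5:**
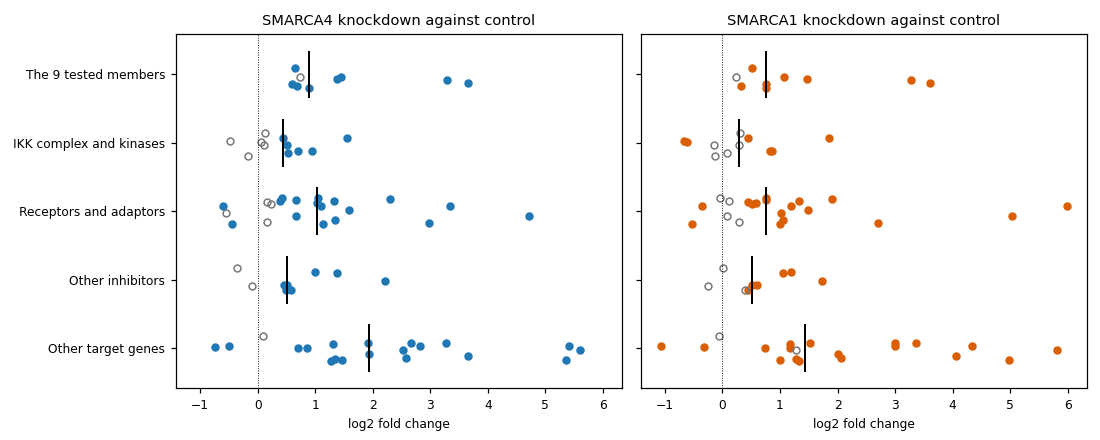
Log2 fold change of each tested gene of the members and of 4 pathway lists in the 2 knockdowns, with filled points for an edgeR adjusted p below 0.05 and a black bar at the median of the group. The members' medians are 0.90 and 0.76, and those of the other target genes 1.93 and 1.43.

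Interferon response genes moved in the same libraries. All 12 of this list were higher in both knockdowns, with medians of 8.66 and 8.81 on the log2 scale. Of all genes tested, 22.8% were higher in *SMARCA4* knockdown, 23.8% in *SMARCA1* knockdown and 16.2% in both. *IFIT1*, which encodes an interferon-induced protein that binds foreign RNA, rose by 9.16 (SE 0.41, edgeR adjusted p = 6.3e-07) and 8.98 (SE 0.41, adjusted p = 1.0e-06). The summed level of the 12 was 150 to 157 CPM in the controls, 12865 to 35755 CPM in the *SMARCA4* libraries and 18847 to 36578 CPM in the *SMARCA1* libraries. Several pathway genes, such as *IRF1*, *MYD88* and *IKBKE*, are also known interferon targets. The summed level of the 7 immune cell markers was 2.34 CPM in both controls, 2.39 to 16.1 CPM in *SMARCA4* and 9.14 to 23.7 CPM in *SMARCA1* knockdown, with *MS4A1* at 0 throughout and *PTPRC* at 0 in 9 of 10 libraries. *LYZ*, the lysozyme gene, carried nearly all of that rise, with 0.520 to 0.795 CPM in the controls, 1.68 to 15.4 CPM in *SMARCA4* and 8.04 to 22.5 CPM in *SMARCA1* knockdown. *CD14* was present in every library, at 1.55 to 1.82 CPM in the controls, 0.559 to 0.804 CPM in *SMARCA4* and 0.795 to 1.26 CPM in *SMARCA1* knockdown. That of the 7 stromal and endothelial markers was 6.65 to 14.0 CPM, 9.49 to 17.6 CPM and 10.8 to 20.8 CPM. The part of these genes in the members' changes was not tested. Nor was that of siRNA delivery, which is named for the knockdown libraries and for neither control.

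In promoter sequence, the kappaB consensus was held by 12 of 28 other target genes with a RefSeq window and by 7 of 10 other inhibitors. It was held by 1 of 10 IKK genes, 1 of 19 receptor and adaptor genes and 1 of 9 interferon response genes. GAAANNGAAA was held by 8 of those 9 interferon response genes, and by 1 of the 8 members with a window. Genes may have several windows, and 7.09% and 4.38% of all genes held the consensus and the repeat in at least 1 window.

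The genes whose profile was most like that of each member were found by Pearson correlation of log2 CPM over the 10 libraries, among 10877 genes with a mean of at least 5 CPM. For *BIRC3* these were *KLF4* (r = 0.999) and *ASPHD2* (0.996), for *TNFAIP3* *RASGRP3* (0.992) and *CD274* (0.991), and for *NFKBIA* *SH3TC1* (0.994) and *BCL2L1* (0.993). The nearest gene to *RELB* was *CHPF2* (0.992), with the IkappaB gene *BCL3* next (0.991). For the other subunits the nearest were *MIA2* for *NFKB1* (0.995), *C20orf96* for *NFKB2* (0.988), *SSTR5-AS1* for *RELA* (0.988) and *SEC16A* for *REL* (0.990), and for *NFKBIE* *C2CD4C* (0.997). The 10 points share the same 2 controls and the same knockdowns, so the correlations follow the difference between control and knockdown and carry no test.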

How the data were processed

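RNA-seq of 10 VCaP libraries was analysed. The authors sequenced strand-specific paired-end reads from polyadenylated RNA and aligned adaptor-trimmed reads to the human genome, with HISAT2 2.1.0, featureCounts 1.5.2 and hg38 named in the submitters' processing notes. The deposited tables hold raw counts per gene that the authors had not normalized, and the GENCODE release of this counting is not given in the sources used here. Gene positions came from a GENCODE annotation of GRCh38 and promoters from RefSeq GRCh38.p14.

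Genes were kept by filterByExpr (minimum count 10, minimum total count 15), which left 16899 genes. With TMM factors, the quasi-likelihood test of edgeR 4.0.16 (limma 3.58.1, R 4.3.3) was run on all libraries as 5 groups for 9 comparisons, a knockdown being the average over its 2 siRNAs. Benjamini-Hochberg adjustment ran over all genes, with calls at an adjusted p below 0.05. SE was derived from the F statistic. CPM used library totals over the genes kept, multiplied by the TMM factors, and TPM the lengths in the deposited count tables. The fit was tested on simulated data.

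The members, gene lists and tests were chosen with earlier results of these data known. The text names all members, the targeted genes and, of each list, the called genes with the 3 largest rises and the 2 largest falls at a mean of at least 1 CPM, as well as the 2 genes most like each member. Not all that met this rule are printed. Alternatives were DESeq2 1.42.0, RLE, upper-quartile and no normalization factors, other filters, the libraries compared alone, a replicate block, CPM in place of TPM and each library left out. The length of *REL* without shared bases was added after seeing the data. With 3 counts as the floor, depth limits only *TNF* among the members.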

Additional observations from a re-analysis of the deposited data

Results flagged for a closer look

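In the group of 4 *SMARCA1* knockdown libraries, the *REL* level of siRNA A replicate 1 lay apart from the other 3, with a gap of 0.947 of the range of the group, above Dixon's critical value of 0.829. Of 18 groups tested this was the 1 that passed, and chance gives about 1 in 20. *RELA* differed between the knockdowns by 0.372 on the log2 scale and *RELB* by 0.381, both higher in *SMARCA4* knockdown by the edgeR test of the difference (adjusted p = 0.0057 and 0.040).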

How the results depend on the processing

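The counts of members called against the control were 7 to 8 in *SMARCA4* and 7 to 9 in *SMARCA1* knockdown with 1 library left out, and 8 or 9 under each other alternative. Of the 9 called in *SMARCA1* knockdown without siRNA A replicate 2, 1 was a fall of *REL*. With only the libraries compared, the count was 1 between the knockdowns and 4 for *SMARCA1* siRNA A. With 1 library left out, both of these counts moved, as did those between the siRNAs of either target. The number called over all genes moved as well in such fits, each of which rests on a lone library in 1 group. Between *SMARCA4* siRNA B and siRNA A, DESeq2 called 1 (*NFKB2*) and the fit with no filter 2, and between *SMARCA1* siRNA C and siRNA A both called 2 (*BIRC3* and *TNFAIP3*). Over all genes, 1048 and 2 calls between siRNAs became 1674 and 516 with DESeq2 and 2352 and 1276 with no filter, and 212 and 0 with only the libraries compared, where *SMARCA1* siRNA A against control went from 5873 to 3665. Without control replicate 1 the 7616 and 7911 genes called in the 2 knockdowns became 4413 and 4430. With 1 library left out, the called IKK genes in *SMARCA1* knockdown ranged from 3 to 8 and the called other inhibitors in *SMARCA4* knockdown from 4 to 7, beside 6 to 7 and 7 to 8 under the other alternatives. Between the knockdowns, signs turned with 1 library left out for *NFKB2* (-0.27 to 0.015), *NFKBIA* (-0.19 to 0.0036), *TNFAIP3* (-0.27 to 0.24) and *BIRC3* (-0.28 to 0.30). None of these was called between the knockdowns with all libraries. With 1 library left out, *REL* in *SMARCA1* knockdown ranged from -0.34 to 0.56. With no filter *REL* was called at 0.76 in *SMARCA4* knockdown (adjusted p = 0.00012) and at 0.53 between the knockdowns. *RELB* between the knockdowns had an adjusted p of 0.062 with only the libraries compared. CPM in place of TPM gave control shares of 17.2% for *NFKB1*, 10.1% for *NFKB2*, 3.21% for *RELB* and 2.29% for *REL*, and *REL* without its shared bases held 1.65% in place of 0.945%. The cause of these changes was not tested.

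Replicate numbers are shared across groups, but nothing in the labels ties them to a culture or day, and the deviations of same-numbered libraries correlated between -0.103 and 0.362 over pairs of groups. With a replicate block, the members called stayed at 8, 8 and 2 in the knockdown comparisons, and the difference between the knockdowns turned to -0.032 for *TNFAIP3* and -0.017 for *BIRC3*, neither called. Over all genes the calls between *SMARCA1* siRNA C and siRNA A went from 2 to 16.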
